A study of Mus musculus with 30 samples.

Results

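CP-868388 was compared with vehicle in mouse liver 24 h after the start of treatment. The arrays were chosen by their titles, which name liver, 24 h, the treatment and a replicate number. They were 4 arrays of CP-868388 and 4 of vehicle, 8 of the 30 arrays in the series. All mice were male C57Bl/6. One group received CP-868388, a piperidine agonist of the nuclear receptor PPAR-alpha known here by its code name, at 1 mg/kg per day, and the other received water. The design text counts mice, so each array was taken as 1 mouse. Total RNA came from whole frozen liver, so fewer cells of a type and less RNA per cell cannot be told apart. The remaining 22 arrays hold the same compound and its vehicle at 5 days, and the agonists CP-775146 and CP-865520 at both times.

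PPAR-alpha is a ligand-activated transcription factor that pairs with the retinoid X receptor on DNA. In liver it is known for switching on peroxisomal and mitochondrial fatty acid oxidation, ketone body synthesis and fatty acid transport, and for lowering inflammatory transcripts. The label on these arrays was made by T7 transcription from cDNA, a reaction that usually starts at the poly(A) tail. Broken RNA or short cDNA then loses signal at the 5' end first, and probe sets far from the tail read too low. The arrays carry 5', middle and 3' probe sets for Gapdh (a glycolytic enzyme), beta-actin (a cytoskeletal protein) and pyruvate carboxylase, which makes oxaloacetate for gluconeogenesis and for refilling the citric acid cycle. A lower 5'/3' ratio means less 5' signal, here called 3' bias.

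No gene names come with the deposited probe set IDs. The response is therefore described over probe sets, and genes are named only where a control probe set carries the name in its ID. Liver cell type markers and PPAR-alpha pathway lists could not be read from these data.

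The 8 arrays had mean intensities between 315.5 and 318.1. No value lay below 50, called the floor here, and 7963 of 12422 probe sets other than controls were tested after a filter on low values. CP-868388 arrays had 5566 to 5984 probe sets above the floor and vehicle arrays 6260 to 6455, with no overlap. All values at the floor made up 53.0% under CP-868388 and 48.6% under vehicle. Counts above the floor did not overlap at 5 days either, at 5678 to 6166 under CP-868388 and 6442 to 6704 under vehicle. At 24 h CP-775146 arrays had 5994 to 6197, also below every vehicle array. CP-865520 arrays had 6319 to 6540 at 24 h and overlapped vehicle.

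All 3 control transcripts had lost 5' signal under CP-868388, and on all 4 of its arrays. The Gapdh log2 5'/3' ratio was -0.55, -0.19, -0.55 and -0.13 in CP-868388 replicates 1 to 4. In vehicle replicates 1 to 4 it was 0.08, 0.16, -0.07 and -0.07. Replicates 1 and 3 stood lowest, but replicates 2 and 4 also lay below every vehicle array. The group means were -0.36 ± 0.23 and 0.02 ± 0.11 (SD, n = 4 each), a difference of -0.38.

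Beta-actin had log2 ratios of -1.36, -0.98, -1.28 and -0.95 under CP-868388. Vehicle gave -0.63, -0.44, -0.64 and -0.71. The same pair of arrays was lowest, the groups did not overlap, and the means differed by -0.54. Pyruvate carboxylase had log2 ratios of -2.89, -2.39, -3.72 and -2.02 under CP-868388 and of -1.21, -1.56, -1.47 and -1.32 under vehicle. This was the largest of the 3 differences, at -1.37. On the linear scale the 5' set of pyruvate carboxylase read 0.0760 of its 3' set in CP-868388 replicate 3, against 0.339 to 0.433 in vehicle. Each of the 3 differences had an exact two-sided permutation p = 0.0286, the smallest that 4 arrays against 4 allow, and 0.0286 after Benjamini-Hochberg adjustment over the 3. Replicates 1 and 3 were known as biased from these same ratios before the test. The p-values thus describe the difference and are no independent check of it.

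**Figure D1:**
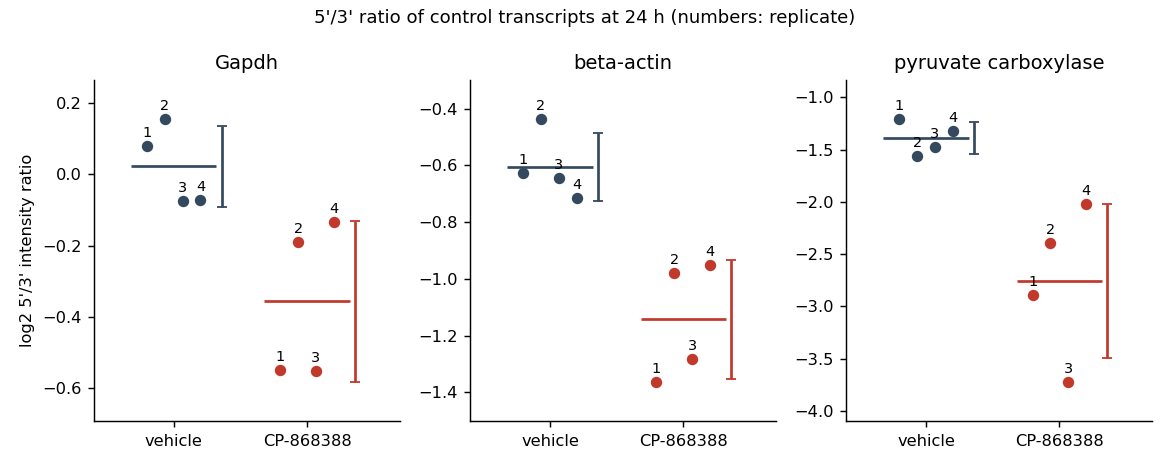
Log2 5'/3' intensity ratio of 3 control transcripts on each 24 h array. Points are arrays numbered by replicate, lines are group means and bars SD (n = 4). All 4 CP-868388 arrays lie below all 4 vehicle arrays for each transcript, and replicates 1 and 3 lie lowest.

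An integrity score, the mean of the 3 standardised ratios, ranked all 30 arrays. CP-868388 replicate 3 was the lowest at -2.40 and replicate 1 the next at -2.003. Replicate 2 ranked 5 at -0.67 and replicate 4 ranked 9 at -0.33, while the 24 h vehicle arrays lay between 0.45 and 1.02. The score thus separated the groups completely, so within these 8 arrays the bias and the treatment cannot be told apart. At 5 days the CP-868388 score was 0.26 ± 0.23 and the vehicle score 0.49 ± 0.29 (SD, n = 4 each), and their arrays overlapped. Of the 3 ratios, that of pyruvate carboxylase did not overlap, at -1.95 to -1.65 under CP-868388 and -1.57 to -1.26 under vehicle. Beta-actin means were -0.97 and -0.80 and Gapdh means 0.15 and 0.03, with arrays that overlapped. The same ratios were computed for the hybridization controls, bacterial and phage transcripts that do not come from liver. Not being liver RNA, they cannot show whether the liver RNA was broken. Their log2 5'/3' differences were 0.01 for BioB, 0.04 for BioC, -0.10 for BioDn and 0.11 for CreX. The groups overlapped for each, with exact two-sided permutation p between 0.286 and 0.914.

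Gapdh, beta-actin and pyruvate carboxylase fell under CP-868388 by an amount that grew toward the 5' end. Gapdh changed by a log2 of -0.54 at its 3' set, -0.67 in the middle and -0.92 at its 5' set (limma adjusted p = 0.0130, 0.00598 and 0.00192). Its 3' set read 4611, 5340, 3632 and 5560 under CP-868388 and 6934, 6874, 6887 and 6955 under vehicle. Every CP-868388 array was lower, and replicates 1 and 3 were the lowest. Beta-actin changed by -0.61, -1.01 and -1.13 at its 3', middle and 5' sets (limma adjusted p = 0.0102, 0.00665 and 0.00287). Without CP-868388 replicate 3 alone, the 3' calls were lost for Gapdh (-0.42, limma adjusted p = 0.0731) and beta-actin (-0.48, limma adjusted p = 0.0570). With the array medians set equal the Gapdh 3' change was -0.33 and its call was lost (limma adjusted p = 0.0643), while that of beta-actin was -0.39 and kept (limma adjusted p = 0.0436).

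Pyruvate carboxylase showed no called change at its 3' set, with 891, 1037, 882 and 947 under CP-868388 against 924, 1152, 1010 and 890 under vehicle. The log2 change was -0.07 (limma adjusted p = 0.719) and the groups overlapped. Its 5' set read 120, 198, 67 and 233 under CP-868388 against 400, 391, 364 and 356. That is a log2 change of -1.14 (limma adjusted p = 0.00131), in the same transcript. The sets named MA and MB in their IDs changed by -1.06 and -0.78 (limma adjusted p = 0.0103 and 0.000926). Without replicate 3 the MA call was lost (-0.76, limma adjusted p = 0.0711). The call for this enzyme thus depended on which end of its transcript was read.

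**Figure D2:**
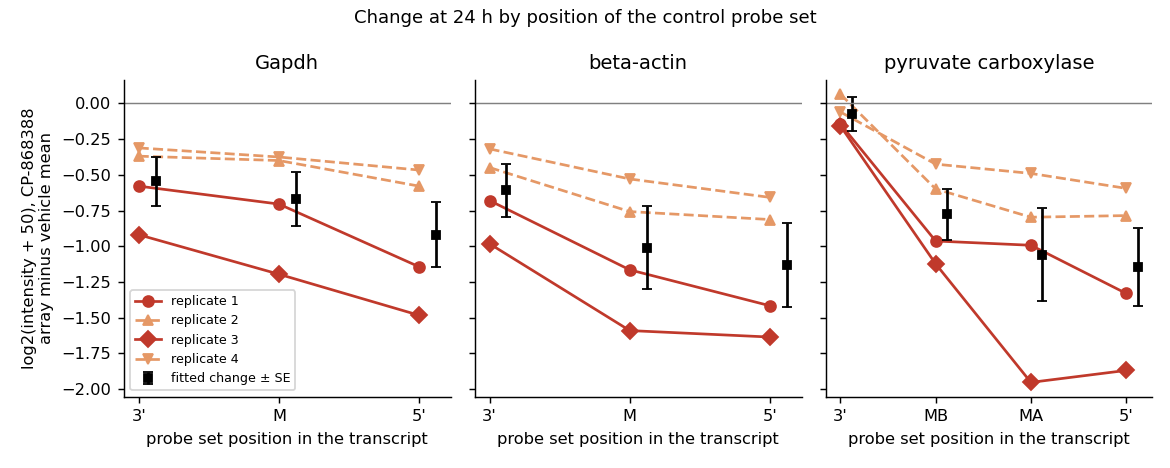
Difference of each CP-868388 array from the vehicle mean on the log2(intensity + 50) scale, for probe sets named 3', M, MB, MA or 5'. Solid lines are replicates 1 and 3, dashed lines 2 and 4, and black squares the fitted change with its SE; the fall is deepest toward the 5' sets and in replicate 3.

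At 5 days, with other vehicle arrays, Gapdh changed by nearly the same amount along its length, -0.78 at the 3' set, -0.76 in the middle and -0.66 at the 5' set. Each was called (limma adjusted p = 0.000853, 0.00263 and 0.0231). Beta-actin changed unevenly, by -0.62 at the 3' set, -1.15 in the middle and -0.79 at the 5' set, each called (limma adjusted p = 0.00955, 0.00273 and 0.0348). Pyruvate carboxylase changed by 0.12 at its 3' set and -0.20 at its 5' set, neither called (limma adjusted p = 0.460 and 0.601). With the integrity score as a covariate, none of the 24 h changes of these 3 transcripts was called. The score is built from these probe sets, so that is no separate check. Without replicates 1 and 3 none was called either.

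A control probe set with MURFAS in its ID, not tied to a gene here, moved the other way. It read 115, 140, 166 and 149 under CP-868388 and 61, 52, 67 and 70 under vehicle. All CP-868388 arrays were higher and the log2 change was 0.77 (limma adjusted p = 3.77e-05). It was 0.76 with the integrity covariate and 0.79 without replicates 1 and 3. The 3' set of 18S ribosomal RNA changed by -0.61 (limma adjusted p = 0.138), with arrays that overlapped. Its 5' and middle sets changed less, by -0.09 and -0.07 (limma adjusted p = 0.932 and 0.972). Both lay near the floor, with group means between 71.5 and 80. The control sets of interleukins 2, 4 and 10 and the 5' and middle sets of the transferrin receptor were at the floor on all 8 arrays.

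Over the whole array, 3234 of 7963 probe sets were called at 24 h, which is 40.6%. Of these, 988 were higher under CP-868388 (12.4% of those tested) and 2246 lower (28.2%). Changes of at least 2-fold were fewer, 165 higher and 282 lower. With the integrity score as a covariate 1538 were called (19.3%), 573 higher (7.2%) and 965 lower (12.1%). Without replicates 1 and 3, 2075 were called (26.1%), 695 higher (8.73%) and 1380 lower (17.3%).

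The split of directions depended on scaling. After quantile normalization 1355 were higher and 1559 lower. When the median of each array was set equal, 2958 were higher and 1253 lower, and the median log2 change over all tested probe sets moved from -0.06 to 0.16. When only probe sets measured above the floor on every array set the centre, 2175 were higher and 1472 lower.

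Calls were sorted by whether they were kept, in the same direction, under the covariate and without replicates 1 and 3. Both held for 1422 probe sets, 505 higher and 917 lower. Neither held for 1163, 297 higher and 866 lower. Another 612 were kept only without the 2 arrays and 37 only with the covariate. Since replicates 2 and 4 also have lower ratios than vehicle, leaving out replicates 1 and 3 lessens the bias without equalising the groups. Large changes were mostly kept. Of 447 called probe sets that changed by at least 2-fold, 407 were kept under both and 9 under neither.

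Among the 1422, the split again turned on scaling. Repeating all 3 fits after quantile normalization kept 1247 probe sets, 583 higher and 664 lower. After median centring 1339 were kept, 862 higher and 477 lower. Under all 3 scalings 928 were kept in 1 direction, 468 higher and 460 lower. The scalings move the changes up or down as a body, so that last split does not inform on the balance of rises and falls.

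The probe sets kept under both had a median log2 change of 0.78 where higher and -0.74 where lower. In replicates 1 and 3 those medians were 0.84 and -0.80, and in replicates 2 and 4 they were 0.70 and -0.68. Those lost under both were smaller and leaned more on the biased arrays. Their medians were 0.51 in replicates 1 and 3 against 0.30 in 2 and 4 where higher, and -0.54 against -0.31 where lower. These classes use the same arrays as the calls, so the values describe them and test nothing. Over all 3234 calls, the change was larger in replicates 1 and 3 for 2425 (74.98%). Among probe sets not called, this held for 62.1% of 1593 with a positive change and 38.7% of the 3136 others. Only 1 of the 3234 calls had a sign in replicates 2 and 4 opposite to its fitted change. The fitted change includes replicates 2 and 4, so this agreement is largely built in. The median SE of the called probe sets was 0.12 where higher and 0.13 where lower, 0.15 and 0.16 with the covariate, and 0.14 and 0.15 without the 2 arrays. Errors were thus wider under both alternatives, while changes were smaller.

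**Figure D3:**
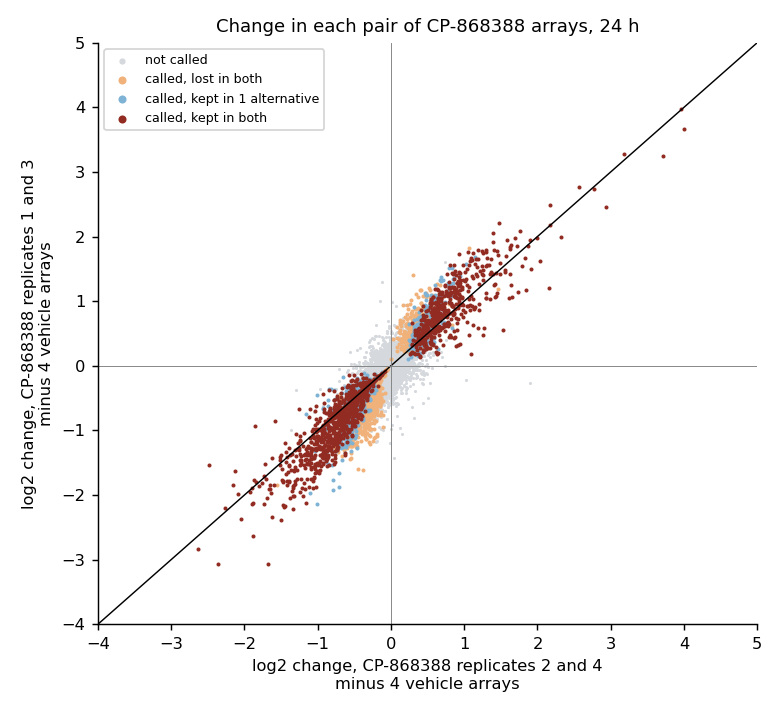
Log2 change against the 4 vehicle arrays in CP-868388 replicates 2 and 4 (x) and in replicates 1 and 3 (y), 1 point per tested probe set (n = 7963); the line is equality. In replicates 2 and 4 all called probe sets except 1 have the sign of their fitted change, which includes these arrays. Of the called probe sets, 74.98% are farther from 0 in replicates 1 and 3. Of those not called, 62.1% of 1593 with a positive change and 38.7% of the 3136 others are.

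How each probe set follows 3' bias was read from arrays outside the comparison. A slope of log2 intensity on the integrity score was fitted within groups on the other 22 arrays. A positive slope means less signal on biased arrays. Across the 7963 probe sets, Spearman's rho between this slope and the 24 h change was -0.49. It was -0.54 for replicates 1 and 3 and -0.40 for replicates 2 and 4. With the covariate it was -0.10, which is largely built in because the covariate's slope is fitted on those 22 arrays too. Probe sets are not independent replicates and share the 22 arrays and their intensity, so rho is given as a description. Without CP-865520 24 h replicate 4, the most biased of those arrays, the first rho was -0.47. On the 14 arrays of CP-775146 and CP-865520 alone it was -0.47. With the 5-day change of CP-868388 the 14-array slope gave -0.25.

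The probe sets were divided into 5 equal groups by the 22-array slope. From the lowest to the highest group, 33.3%, 10.99%, 6.40%, 7.16% and 4.21% were called higher under CP-868388. In the same order 7.91%, 14.3%, 22.3%, 40.7% and 55.8% were called lower. The probe sets that lose most signal on biased arrays were thus called lower most often. Without replicates 1 and 3 the lowest and highest groups gave 22.5% and 3.89% higher, and 5.46% and 31.6% lower. With the covariate the lower calls ran from 7.47% to 16.6% and the higher calls from 13.8% to 6.78%. The covariate's own slope uses the same 22 arrays, so these flatter shares were largely built in. Calls for CP-868388 at 5 days, on arrays that are among those 22, also differed between the groups. From the lowest to the highest group, higher calls at 5 days ran from 29.9% to 9.29% and lower calls from 14.2% to 36.3%. Median vehicle intensity also differed between the groups, at 131.5 in the lowest, 66.2 in the next and 271.5 in the highest. Its part in these shares was not tested. In all 30 arrays the slope itself was called in 857 probe sets (10.8%), 592 positive and 265 negative. Scaling turned this balance, to 383 positive and 409 negative after quantile normalization and to 374 and 500 with the array medians set equal.

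**Figure D4:**
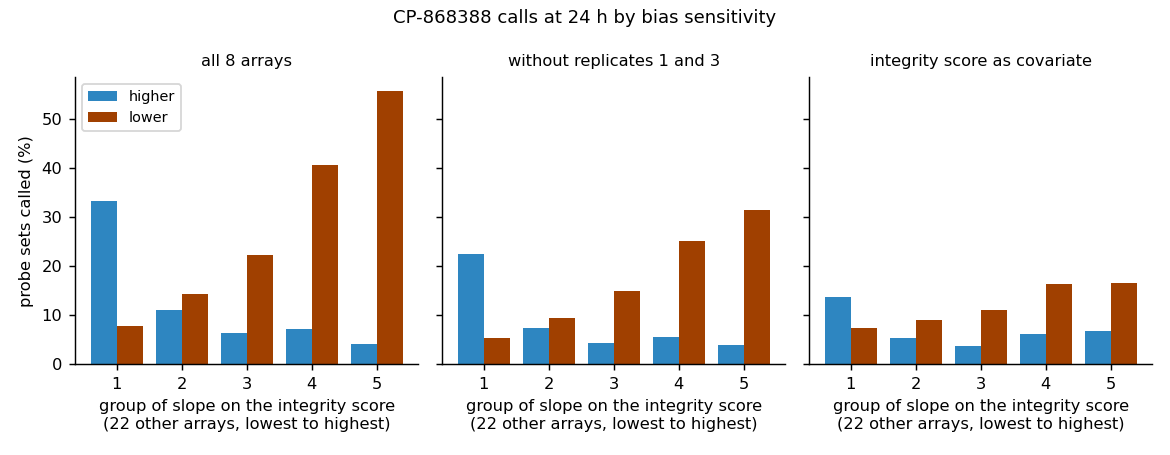
Percentage of tested probe sets called higher or lower under CP-868388 at 24 h, in 5 equal groups by slope on the integrity score in 22 other arrays, from lowest to highest. With all 8 arrays, lower calls rise from 7.91% to 55.8% across the groups. With the covariate, whose slope is fitted on those 22 arrays too, they run from 7.47% to 16.6%.

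The 5-day comparison of CP-868388 uses different mice, vehicle included, so it is a separate measurement of the compound. It gave 3008 calls (37.8%), 1114 higher (14%) and 1894 lower (23.8%). This split also moved with scaling, to 1334 higher and 1348 lower after quantile normalization and to 2331 and 1059 with the array medians set equal. Of the 3234 calls at 24 h, 2023 (62.6%) were called in the same direction at 5 days and 16 in the opposite direction. Spearman's rho between the changes at both times was 0.71 across the 7963 probe sets, 0.69 with the covariate at 24 h and 0.71 without replicates 1 and 3.

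The share of 24 h calls that were called again at 5 days was read separately for calls kept and calls lost under both alternatives, with no test of the difference. Of those higher, 93.1% of the kept and 52.2% of the lost were called higher at 5 days, against 14% over all tested probe sets. Of those lower, the shares were 73.9% and 35.7%, against 23.8% over all tested probe sets. Kept calls were also larger. Being kept favours probe sets with a small spread, and the 5-day call uses that same spread. A higher share among kept calls is thus partly built in, also within a range of sizes. Among rises with a log2 size below 0.4, 76.3% of 38 kept and 41.4% of 145 lost were called again. From 0.4 to below 0.6 these were 86.3% of 102 and 63.3% of 109, and from 0.6 to below 1 they were 94.4% of 216 and 62.5% of 40. Falls were read the same way. Below 0.4 the shares were 33.6% of 128 kept and 27.6% of 362 lost falls. From 0.4 to below 0.6 they were 60.2% of 186 and 42.3% of 317, and from 0.6 to below 1 they were 81.7% of 345 and 39.2% of 181. At a log2 size of 1 or more only 3 lost rises and 6 lost falls were left to compare.

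The response differed between the times in 282 probe sets (3.54%), by limma's interaction contrast. The signed log2 change was higher at 5 days than at 24 h in 200 and lower in 82. Of the 200, 116 had been called lower at 24 h and 38 called higher, and their median log2 change went from -0.31 to 0.32. Over all tested probe sets 28.2% were called lower and 12.4% higher at 24 h. The 200 were picked for a higher change at 5 days, so many falls at 24 h and a rising median are partly built in. With the array medians set equal the split into higher and lower at 5 days was 112 and 84. With the centre set by probe sets above the floor it was 105 and 90. The count was 99 with the covariate, 111 without CP-868388 24 h replicates 1 and 3, and 184 without replicate 1 alone. It was 59 with the Gapdh ratio as covariate.

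By the rule for named probe sets, the 2 largest rises and the 2 largest falls were taken among those kept under both alternatives with no overlap between the groups. They were chosen for these values, which are therefore a description. The probe set 97316_AT read 4238, 4474, 4536 and 4280 under CP-868388 and 267, 216, 274 and 187 under vehicle. Replicates 1 and 3 were the lowest and the highest of the treated arrays. The mean rose 18.6-fold, a log2 change of 3.97 ± 0.11 (SE), and it was 4.06 with the covariate and 3.96 without replicates 1 and 3.

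The probe set 103581_AT read 3153, 3663, 3211 and 4449 under CP-868388 and 244, 207, 231 and 147 under vehicle. Replicates 1 and 3 were the lowest of the treated arrays, and all 4 lay far above vehicle. The rise was 17.5-fold, a log2 change of 3.84 ± 0.12 (SE), 4.06 with the covariate and 4.01 without the 2 arrays.

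The probe set 102816_AT read 162, 158, 85 and 133 under CP-868388 and 1232, 1097, 1182 and 1132 under vehicle. It was 8.63-fold lower, a log2 change of -2.74 ± 0.17 (SE), -2.66 with the covariate and -2.63 without the 2 arrays. Against the same vehicle arrays it stood at 181 ± 44.1 under CP-775146 and 157 ± 35.8 under CP-865520 (SD, n = 4 each).

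The probe set 96326_AT read 625, 972, 515 and 943 under CP-868388 and 5044, 6128, 4216 and 5375 under vehicle. Replicates 1 and 3 were the lowest here too. It was 6.80-fold lower, with a log2 change of -2.72 ± 0.29 (SE). That change was -1.95 with the covariate and -2.37 without replicates 1 and 3. In the 22 other arrays its slope on the integrity score was 0.35, against -0.0039 for 102816_AT. It stood at 1481 ± 282 under CP-775146 and 1443 ± 671 under CP-865520 (SD, n = 4 each), whose 24 h arrays share its vehicle.

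**Figure D5:**
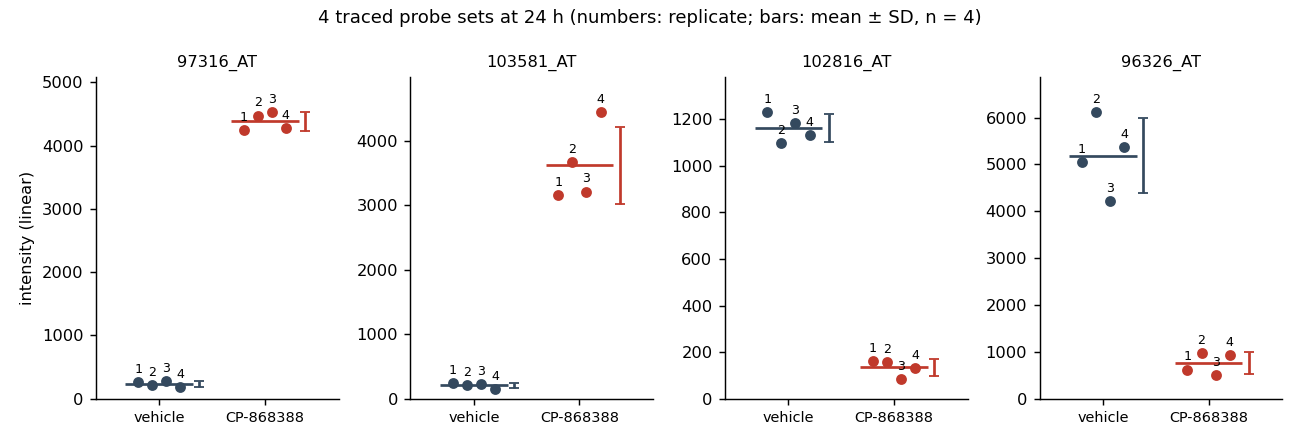
Intensity (linear scale from 0) of 4 probe sets on each 24 h array, numbered by replicate; lines are group means and bars SD (n = 4). The groups do not overlap in any of the 4, and in 96326_AT replicates 1 and 3, at 625 and 515, lie below replicates 2 and 4.

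The floor set some of the calls. In 215 of the 2246 called falls all CP-868388 arrays were at the floor, and in 24 of the 988 called rises all vehicle arrays were. The fold of these understates the difference. Calls were also fewer in dim probe sets. With a vehicle mean above 50 and up to 100, 5.40% of 2443 probe sets were called higher and 17.3% lower. With a mean above 1000 and up to 3000 these were 34.5% and 42.1% of 458.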

How the data were processed

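The deposited table holds linear intensities, with 1 value for each probe set on each array, and MAS5 appears in the submitters' processing notes. The version, the scaling target and the floor step were not given in the sources used here. Values were analysed as log2(intensity + 50) with no further normalization. Probe sets above 50 on at least 2 of 30 arrays were tested, without 66 controls; 3953 never rose above 50. Group means were fitted to all 30 arrays with limma 3.58.1 in R 4.3.3 (lmFit, eBayes with trend, two-sided), with Benjamini-Hochberg adjustment over 7963 probe sets and calls at an adjusted p under 0.05. Mouse control probe sets were tested in the same fit with 18 of them added. Fold changes on this scale understate those of dim probe sets. Ratios were compared by exact permutation tests.

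The comparison, lists and rules were chosen with earlier results of these data known. No table paired probe sets with genes, so the gene and marker lists were not applied, and named probe sets are the 2 largest rises and 2 largest falls kept under both bias alternatives without overlap. Alternatives added after seeing the data left out other pairs of arrays, combined scaling with a bias alternative, used 14 arrays for the slope, or took those of the 24 h count to the 5-day and between-time counts. The script was tested on simulated data. The number of arrays limits the precision.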

Additional observations from a re-analysis of the deposited data

Results flagged for a closer look

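Results below stood apart by a gap between arrays of 1 group or by a tested difference between times. Gap tests flag about 1 in 20 groups by chance, and 68 were run. The CreX log2 5'/3' ratio of CP-868388 replicate 1 was -0.50, above its 3 fellow arrays. The 3' control probe set of the transferrin receptor, which takes iron-loaded transferrin into cells, read 57 in CP-868388 replicate 2 and 58 in vehicle replicate 4, with the other 6 arrays at the floor of 50.

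The log2 response to CP-868388 was larger at 5 days than at 24 h by 0.58 in 97316_AT (limma adjusted p = 0.0408) and by 0.66 in 103581_AT (limma adjusted p = 0.0304). Both differences kept their sign in all 41 alternatives but lost the call in 30 and 24 of them, where the limma adjusted p reached 0.297 for 97316_AT and 0.361 for 103581_AT, the lowest being 0.00634 and 0.00694. Those with the integrity covariate and without CP-868388 24 h replicate 1 or 3 were among the losses for each. In all, the response differed between the times in 282 probe sets, with a higher signed log2 change at 5 days in 200 and a lower one in 82.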

How the results depend on the processing

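The 24 h count of 3234 was within 1.5 times in 27 of 35 alternatives. It was 1538 with the integrity covariate, 2029, 1830 and 1233 with the Gapdh, beta-actin or pyruvate carboxylase ratio as covariate, and 2075 without the 2 biased arrays. With quantile normalization it was 1369 with the covariate and 1853 without those arrays, and with median centring and the covariate 1456. Leaving out other pairs of CP-868388 arrays gave 2693 (1 and 2), 2952 (1 and 4), 2313 (2 and 3), 3112 (2 and 4) and 2499 (3 and 4). Leaving out 1 replicate gave 2684 to 3253. The 5-day count of 3008 ran from 2467 to 3439 and stayed within 1.5 times in all 25 alternatives. The count of 282 that differed between times was 99 with the covariate, 59, 157 and 116 with the Gapdh, beta-actin or pyruvate carboxylase ratio, and 111 without the 2 biased arrays. It was 129 (1 and 2), 168 (1 and 4), 142 (2 and 3), 323 (2 and 4) and 147 (3 and 4) without other pairs, 122 and 117 after quantile normalization with the covariate or without the biased pair, 70 and 67 after median centring likewise, and 184 to 365 without 1 replicate. Ratio differences without 1 replicate ran from -0.45 to -0.31 for Gapdh, -0.60 to -0.46 for beta-actin and -1.61 to -1.04 for pyruvate carboxylase, with an exact permutation p of 0.0571, the smallest those arrays allow. The 4 named probe sets were called in all 35 alternatives.

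Control probe sets changed sign, each uncalled, as follows. With the pyruvate carboxylase ratio as covariate, beta-actin was at 0.076 (3'), 0.13 (middle) and 0.047 (5'), and pyruvate carboxylase at 0.13 (3'), 0.34 (MA) and 0.088 (5'). With median centring and the covariate, beta-actin was at 0.11, 0.13 and 0.14 (3', middle, 5'), Gapdh at 0.042 (middle) and 0.016 (5'), and pyruvate carboxylase at 0.31 (3'), 0.38 (MA) and 0.068 (5'). With quantile normalization and the covariate, pyruvate carboxylase was at 0.14 (3'), 0.32 (MA) and 0.035 (5'), and with the integrity covariate alone at 0.17 (3') and 0.24 (MA). Its 3' set was also at 0.14 with median centring, 0.080 with centring above the floor, 0.11 and 0.15 with the Gapdh or beta-actin covariate, 0.0025 without the 2 biased arrays, and 0.025 and 0.18 without them after quantile normalization or median centring. The cause was not tested.

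Replicate numbers did not pair the arrays. Same-numbered arrays of the 2 groups at 24 h had deviations correlated at -0.01, 0.06, 0.07 and -0.04. With the replicate block the 24 h count was 3136, the 5-day count 2900 and the count between times 204.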
